A study of Mus musculus with 4 samples.

Results

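The 6 genes described here, *Malat1*, *Neat1*, *Miat*, *Rmst*, *Pvt1*, and *Gm42418*, are annotated as long noncoding RNAs. The transcripts of all but *Gm42418* are known to stay largely in the nucleus. *Gm42418* lies within an annotated ribosomal RNA gene, CT010467.1, and no nuclear location is claimed for it. Whether its reads came from ribosomal RNA was not tested. The 6 genes were taken by name from the tables of 4 neural stem cell (NSC) lines, in which 17419 genes are listed in at least 1 of the 4 normalized tables. All 6 were listed in the normalized tables of KN1 and CN4, and 4 of 6 (without *Miat* and *Rmst*) in those of XN4 and XN1. The files hold no separation of nucleus and cytoplasm, so the nuclear location is background and was not measured.

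The NSC lines were made from 129/Sv mouse epiblast stem cells (EpiSCs) and were grown with EGF and FGF2, each at 10 ng/ml. XN4 and XN1 were derived with 10 µM XAV939, a Wnt antagonist, obtained from supplier B for XN4 and from supplier A, with crystalline precipitates in the medium, for XN1. KN1 was derived with neither drug, and CN4 with 2 µM CHIR99021, a Wnt agonist. XN1 and KN1 came from 1 derivation series, and XN4 and CN4 from another. Dissociated cells were kept in a preservative (CellCover) in the cold before 1 BD Rhapsody library was made for each line, so that line, drug, storage, and library cannot be told apart and no test between lines is possible.

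*Malat1* accumulates in nuclear speckles, the bodies that hold splicing factors, and its stable 3′ end is protected by a triple helix rather than by an added poly(A) tail. *Neat1* is the scaffold of paraspeckles, and its long isoform carries the same kind of 3′ end. *Miat*, also called Gomafu, marks a nuclear body of its own in neurons and neural progenitors. *Rmst* is a neural transcript that associates with the transcription factor Sox2, *Pvt1* lies next to *Myc* and is known for its ties to that gene, and *Gm42418* is an annotated transcript at a locus of ribosomal RNA sequence.

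In GRCm38, *Malat1* (ENSMUSG00000092341) is a single exon at chr19:5795690-5802672, minus strand, and *Neat1* (ENSMUSG00000092274) at chr19:5824708-5845478 on the same strand, 22035 bases away. *Miat* (ENSMUSG00000097767) lies at chr5:112213228-112229395 and *Rmst* (ENSMUSG00000112117) at chr10:92071037-92165170, both on the minus strand. *Pvt1* (ENSMUSG00000097039) lies at chr15:62037986-62378096, plus strand, 47611 bases beyond *Myc*. It spans 340 kb, of which its longest annotated transcript, with 10 exons, holds 3.32 kb. *Gm42418* (ENSMUSG00000098178) is a single exon of 1831 bases at chr17:39846958-39848788, plus strand.

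The 3′ ends of *Malat1* and *Neat1* are shown because these stretches, and not an added tail, close the known mature transcripts. The sequences are from the GENCODE M21 transcripts, 5′ to 3′, with runs of at least 4 A or 4 T in capitals. The first is bases 6650 to 6709 of *Malat1* (chr19:5795964-5796023), with its longest run of 12 A, after which the tRNA-like end is cut off. The second is bases 6598 to 6637 (chr19:5796036-5796075), a uridine-rich stretch that pairs with it. The third is the last 80 bases of the long *Neat1* isoform (chr19:5824708-5824787).
Malat1 inner end: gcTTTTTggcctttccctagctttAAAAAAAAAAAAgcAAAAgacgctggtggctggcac
Malat1 uridine-rich stretch: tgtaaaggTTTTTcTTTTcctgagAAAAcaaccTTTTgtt
Neat1 3′ end: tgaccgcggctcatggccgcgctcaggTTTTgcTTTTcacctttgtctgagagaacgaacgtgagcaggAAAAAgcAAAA

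The longest stretch that the first *Malat1* stretch and the *Neat1* end share is AAAAAgcAAAA (11 bases), which 0.436% of 141767 annotated mouse transcripts hold. Each of *Malat1* and *Neat1* has a window of 20 bases with 17 A, as many as 5.41% of all transcripts have. That of *Malat1*, bases 6674 to 6693, lies inside the first stretch shown above. That of *Neat1*, bases 11362 to 11381, lies outside the end of *Neat1* shown above. Among transcripts within 2-fold of their length the shares were 18.1% for *Malat1* and 38.8% for *Neat1*. The fewest A in the best window of a member, 11, were in *Gm42418*, which 77.7% of all transcripts and 92.2% of those of like length reach. A window rich in A is shown for *Neat1* (chr19:5834078-5834137) and *Pvt1* (chr15:62313375-62313434, exonic), and the least A-rich of the best windows for *Gm42418* (chr17:39847147-39847206), because the beads of this method take up RNA by its adenines. Whether these windows were primed was not tested.
Neat1 inner stretch: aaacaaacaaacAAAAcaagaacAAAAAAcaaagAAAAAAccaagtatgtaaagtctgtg
Pvt1 stretch: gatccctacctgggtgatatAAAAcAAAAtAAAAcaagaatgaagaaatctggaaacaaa
Gm42418 stretch: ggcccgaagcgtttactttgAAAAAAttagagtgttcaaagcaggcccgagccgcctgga

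Of the stretches of 25 bases in *Gm42418*, 97.0% occur in a ribosomal RNA gene, CT010467.1, which is annotated at the same place on the opposite strand. *AY036118* overlaps *Gm42418* by 923 bases and is also annotated on the opposite strand. For the other members, between 1.20% and 24.9% of stretches occur in transcripts of other genes when 1 strand is searched at a time. The highest shares were with antisense genes, *Gm26953* for *Miat* and *Gm26700* for *Rmst*. Whether the counting used strand is not given in the sources used here, so values of *Miat*, *Rmst*, and *Gm42418* are uncertain to that extent. *Gm42418* and *AY036118* did not receive like counts, with 365 against 0.452 reads per 10000 in XN4.

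Depth and library quality touch each value below. The normalized tables held 3448 to 3975 cells per line and 19271688 to 41539513 reads, with medians of 4637 to 7796 reads per cell. They hold reads and not molecules, so that intervals cover counting error only and are too narrow where 1 molecule gave many reads. The KN1 library stood apart. Its cells had a median of 833 genes, against 2257 to 2824 in the others, and 767 against 1649 to 1845 after each cell was thinned to 3200 reads. A detected gene had 7.39 reads per cell in KN1, against 2.14 to 3.90. Genes that span over 100 kb took 34.4% of the reads of KN1, against 14.2% to 15.5%. Between pairs of normalized tables, 14 to 21 cell barcodes were shared.

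The lines were also compared with marker genes. *Sox2*, a gene of neural progenitors that EpiSCs also express, was read in 0.560% of XN4 cells, against 13.9% in KN1, 62.2% in XN1, and 83.9% in CN4. The summed level of 8 neural progenitor genes was 2.84 reads per 10000 in XN4 and 17.1 to 62.7 in the others, and that of 8 connective tissue genes 74.9 in XN4 and 0.0468 to 1.53 in the others. Single genes weighed heavily in these sums, with *Col3a1* at 54.7 and *Dcn* at 12.2 in XN4 and *Fabp7* at 41.2 in CN4. Not all listed genes followed their sum. *Thy1*, of the connective tissue list, was not listed in XN4 and was highest in XN1 (0.737). The progenitor gene *Sox9* was alike in XN4 (1.69) and KN1 (1.71). The neuron, astrocyte, oligodendrocyte precursor, epiblast, and blood lists summed to 0.0144 to 0.880, 0.672 to 28.4, 2.46 to 18.6, 0 to 0.0192, and 0.0218 to 0.163 reads per 10000, and the cycling list to 14.4 to 31.7. The part of cell type in the levels of the 6 RNAs was not tested.

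*Malat1* was the RNA with the widest range among the abundant members. Its level was 142 reads per 10000 for XN4, 53.0 for XN1, 320 for KN1, and 32.8 for CN4. KN1 was highest and CN4 lowest, and the counting intervals of the lines did not overlap. At least 1 read was found in 99.0% (CN4) to 99.9% (XN4) of cells, and in 97.0% and 99.7% of them after thinning, so that the share of cells is close to its upper limit. Divided by the length of the longest transcript, the level was 20.3, 7.59, 45.9, and 4.70 reads per 10000 and kb in the same order, which placed *Malat1* at rank 10, 36, 2, and 75 among the genes of known length.

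*Gm42418* was read in 99.8% to 100% of cells. Its level was 365 reads per 10000 for XN4, 158 for XN1, 218 for KN1, and 88.0 for CN4. Here XN4 was highest, and CN4 again lowest. Per kb of transcript, it was the first or second gene of each line. Together, *Malat1* and *Gm42418* made up 5.07% of the reads of XN4, 2.11% of XN1, 5.39% of KN1, and 1.21% of CN4.

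*Neat1* had another order. Its level was 0.529 reads per 10000 in XN4 (interval 0.507 to 0.552), 0.408 in XN1 (0.380 to 0.438), 0.0718 in KN1 (0.0622 to 0.0826), and 0.109 in CN4 (0.0959 to 0.123). Both lines derived with XAV939 stood above both other lines. A read was found in 19.8% of XN4 cells, 11.6% of XN1, 1.28% of KN1, and 4.50% of CN4. After thinning, these shares were 11.2%, 9.30%, 0.825%, and 2.98%, which keeps the order, though XN4 and XN1 came closer.

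*Pvt1* was high in 1 line. Its level was 0.257 reads per 10000 in XN4 (0.241 to 0.273), 0.296 in XN1 (0.272 to 0.321), 3.05 in KN1 (2.98 to 3.11), and 0.375 in CN4 (0.350 to 0.401). XN4, XN1, and CN4 lay close together, with overlapping intervals for XN4 and XN1 only, and KN1 lay far above them. The share of cells with a read was 11.5% for XN4, 11% for XN1, 25.9% for KN1, and 16.2% for CN4, and 5.29%, 7.89%, 24.4%, and 9.94% after thinning. A KN1 cell with *Pvt1* had 8.17 reads of it on average, against 1.33 to 2.36 in the other lines, near the 7.39 reads per detected gene of that library.

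*Miat* and *Rmst* were sparse. *Miat* stood at 0.0229 reads per 10000 in KN1 (0.0176 to 0.0292), with 63 reads in 0.453% of cells, and at 0.0636 in CN4 (0.0537 to 0.0748), with 146 reads in 3.02% of cells. *Rmst* stood at 0.0682 in KN1 (0.0588 to 0.0787), with 188 reads in 0.931% of cells, and at 0.0671 in CN4 (0.0569 to 0.0786), with 154 reads in 2.23% of cells. The 2 lines did not differ in the summed level of *Rmst* beyond counting error, although as a mean over cells KN1 was higher (0.139 against 0.0822 reads per 10000, a log2 ratio of 0.76). Its reads fell in fewer cells in KN1, at 5.08 reads per cell with a read against 2.00. A detected gene had 7.39 reads per cell in KN1 and 2.40 in CN4. The small shares of KN1 cells with *Rmst* or *Miat* are read against that.

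In the tables of all reads, which hold 8741 cells of XN4, 14452 of XN1, and 18157 of CN4, *Miat* had 7 reads in XN4, 3 in XN1, and 708 in CN4. *Rmst* had 17, 9, and 843 reads. A read of *Miat* was thus found in 0.0686% of XN4 cells, 0.0208% of XN1 cells, and 2.76% of CN4 cells, and a read of *Rmst* in 0.194%, 0.0623%, and 2.50%. Per 10000 reads, CN4 had 78.5 times the *Miat* of XN4, a log2 ratio of XN4 over CN4 of -6.29 (-7.61 to -5.24). For XN1 over CN4 it was -6.93 (-9.21 to -5.37). *Miat* and *Rmst* had the 50 reads needed for a ratio only through CN4, where they are high, so that their being past 2-fold against either XAV939 line in these tables is a description, and 39.1% of 15990 genes differed as much between XN4 and CN4 and 21.6% of 15194 between XN1 and CN4. Between XN4 and XN1, 2 of the 4 members with enough reads, *Malat1* and *Gm42418*, were past 2-fold there, against 36.7% of all genes.

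**Figure D1:**
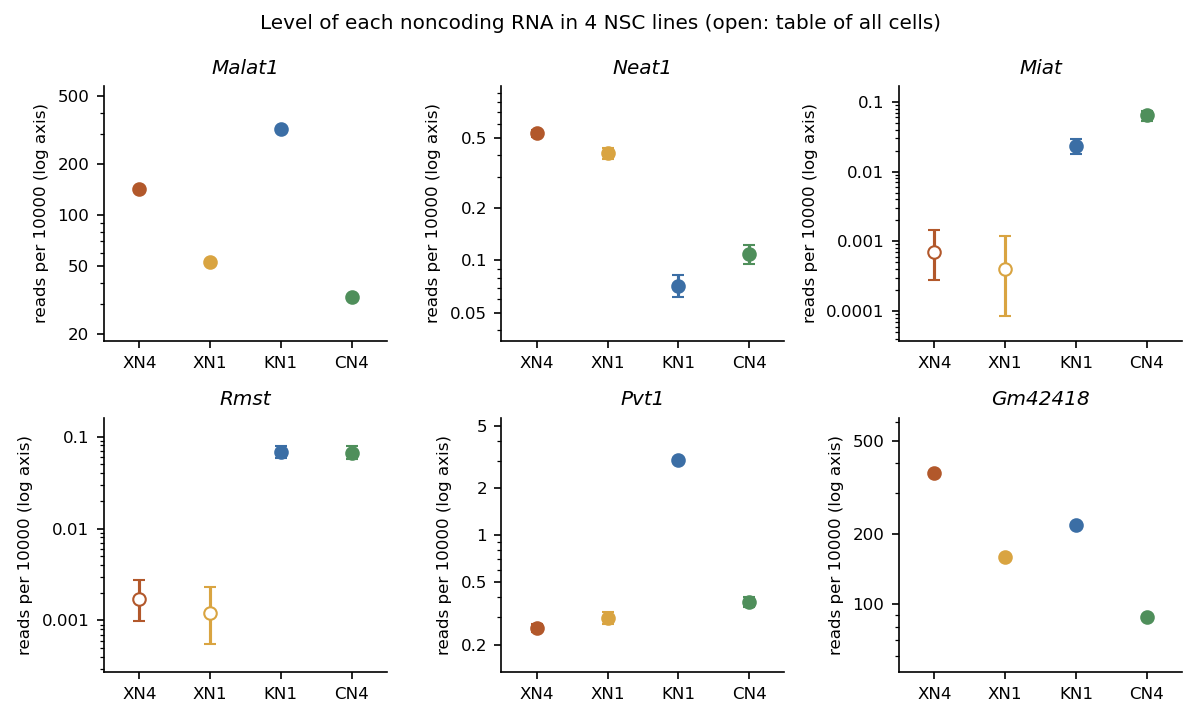
Reads per 10000 of each RNA in the 4 lines, on log axes with a separate scale per panel; bars are exact 95% Poisson intervals, and open circles for *Miat* and *Rmst* in XN4 and XN1 are from the tables of all cells, without ribosomal protein and mitochondrial reads. *Malat1* peaks in KN1 at 320, *Gm42418* in XN4 at 365, *Neat1* in XN4 at 0.529, and *Pvt1* in KN1 at 3.05.

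**Figure D2:**
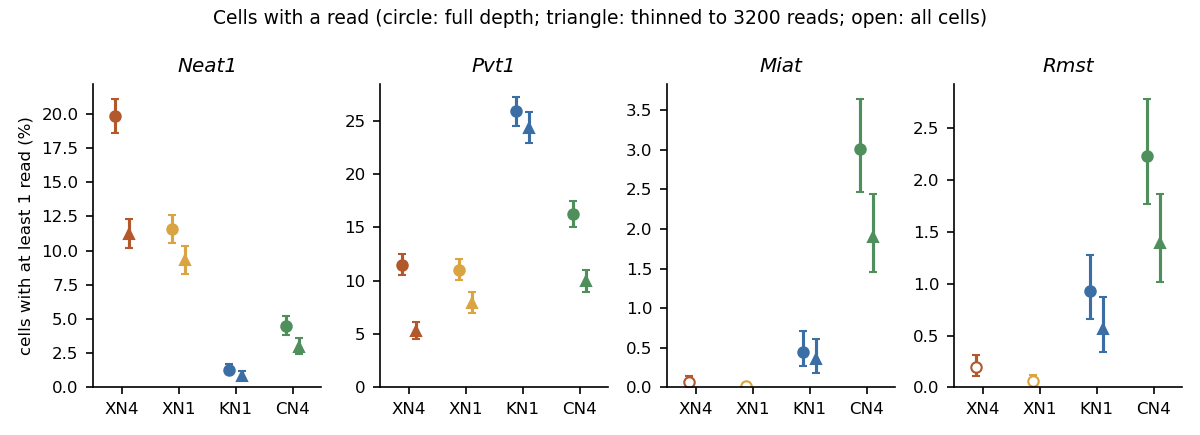
Percent of cells with at least 1 read of the sparse RNAs, by line, at full depth (circles), after thinning to 3200 reads (triangles), and in the tables of all cells (open circles); bars are exact 95% binomial intervals. Thinning lowers *Neat1* in XN4 from 19.8% to 11.2%, while *Pvt1* in KN1 moves only from 25.9% to 24.4%.

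A gene was counted as different between 2 lines where its level differed at least 2-fold. Between XN4 and XN1, 31.1% of all genes with at least 50 reads in 1 of the lines did so, and 2 of the 4 members did, *Malat1* at a log2 ratio of 1.42 and *Gm42418* at 1.21, both higher in XN4. Between XN4 and CN4 the background was 33.1%, and 3 of 4 members were higher in XN4. These were *Neat1* (2.28), *Malat1* (2.11), and *Gm42418* (2.05). Between XN1 and CN4 it was 17.6%, and 1 of 4 members, *Neat1*, was higher in XN1, at 1.91 (1.70 to 2.12).

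In comparisons with KN1, more genes were past 2-fold, and the members' counts are read against that. Between XN4 and KN1, 45.8% of genes and 3 of 4 members were past 2-fold. *Neat1* was higher in XN4 (2.88), and *Pvt1* (-3.57) and *Malat1* (-1.18) were lower. This call of *Malat1* was lost as a mean over cells (-0.59) and after thinning (-0.84), where *Gm42418*, at 0.74, passed 2-fold instead (1.08 after thinning). Between XN1 and KN1 these were 48% of genes and 3 of 4 members, with *Neat1* at 2.51, *Pvt1* at -3.37, and *Malat1* at -2.60. Between KN1 and CN4 they were 44.2% of genes and 4 of 6 members. *Malat1* (3.29), *Pvt1* (3.02), and *Gm42418* (1.31) were higher in KN1, *Miat* (-1.48) was lower, and *Neat1* (-0.60) and *Rmst* (0.02) were not past 2-fold. As the 6 comparisons share libraries, they are not independent of each other.

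The span of a gene moved with the KN1 ratios. From KN1 over CN4, genes under 10 kb had a median log2 ratio of -0.46, those of 10 to 100 kb -0.12, and those over 100 kb 1.26, with 57.2% of the last group at least 2-fold higher in KN1. Beside these genes, *Pvt1*, which spans 340 kb, was at 3.02, and 10.4% of the other 2260 genes over 100 kb were as high or higher. *Malat1* spans 6.98 kb and was at 3.29, which 1.123% of the other 2671 genes under 10 kb reached, and *Gm42418*, at 1.31, was reached by 9.10%. For XN4 over CN4, the median of the long genes was 0.22, and for XN1 over CN4 -0.11. *Neat1*, at 1.91 in the latter comparison, was reached by 2.75% of 7462 other genes of 10 to 100 kb, while *Malat1*, *Gm42418*, and *Pvt1* were reached by 16.3%, 12.9%, and 37.0% of the other genes of their span. For XN4 over CN4 these shares were 5.71% for *Neat1*, 6.70% for *Malat1*, 7.08% for *Gm42418*, and 30.4% for *Pvt1*.

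**Figure D3:**
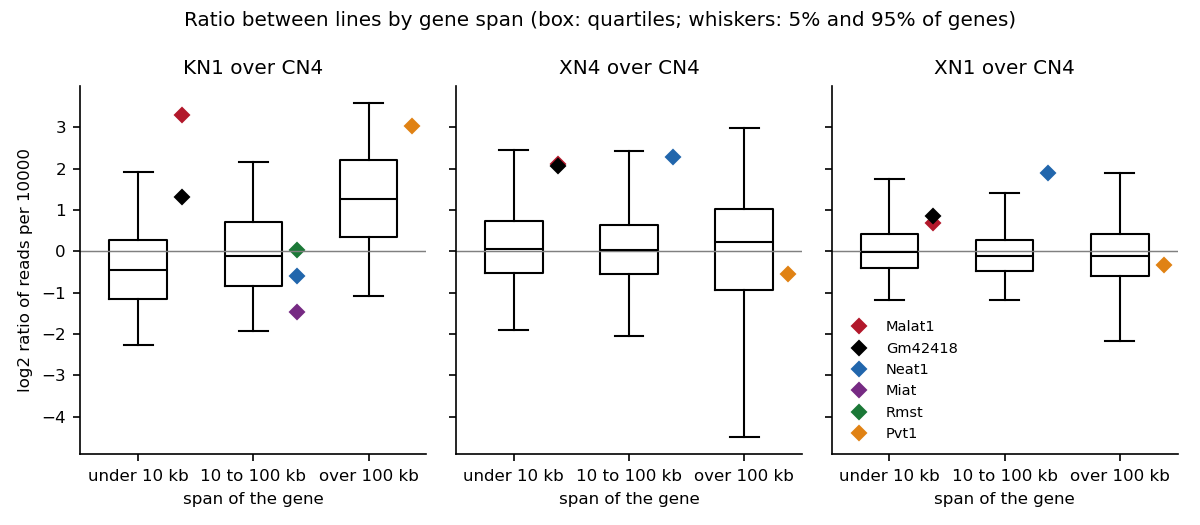
Log2 ratio of KN1, XN4, and XN1 over CN4 for genes in 3 classes of span; boxes give the quartiles and whiskers the 5th and 95th percentiles of genes, and diamonds the members in their class. In KN1 over CN4, the box of genes over 100 kb is centered at 1.26, with *Pvt1* at 3.02, while *Malat1* lies at 3.29 beside short genes centered at -0.46.

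Within each line, *Malat1* varied widely from cell to cell. After thinning to 3200 reads, the 10th, 50th, and 90th percentiles of cells were 25, 125, and 413 reads per 10000 for XN4, 12.5, 37.5, and 109 for XN1, 59.4, 278, and 647 for KN1, and 6.25, 21.9, and 71.9 for CN4. The 90th percentile was between 8.75 times (XN1) and 16.5 times (XN4) the 10th. The ranges of cells between these percentiles overlapped for each pair of lines. *Gm42418* had percentiles of 53.1, 398, and 888 for XN4, 18.8, 65.6, and 513 for XN1, 53.1, 144, and 388 for KN1, and 21.9, 59.4, and 150 for CN4. Its medians in XN1 and CN4 lay close together, and the higher mean of XN1 (160 against 90.8) came from the upper tail of cells.

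**Figure D4:**
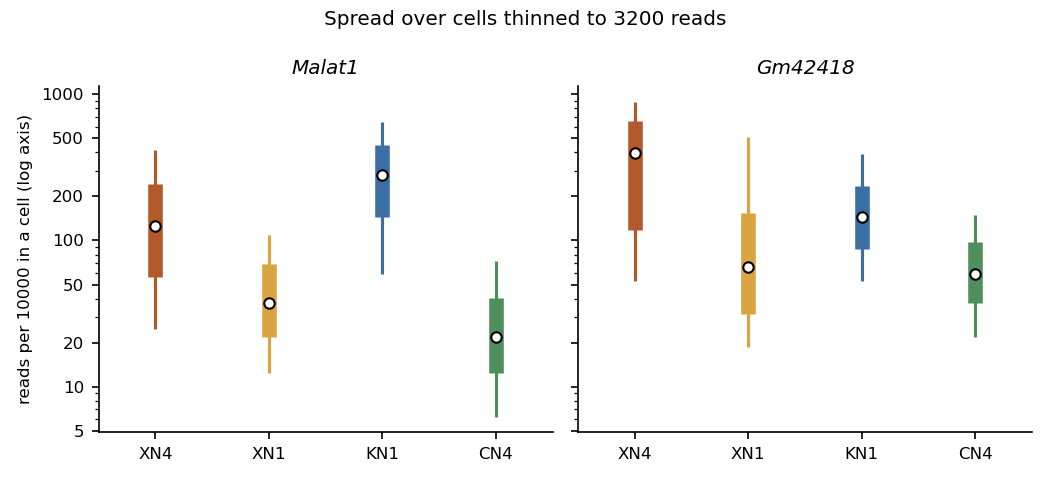
Reads per 10000 of *Malat1* and *Gm42418* over cells thinned to 3200 reads, on a shared log axis; circles are medians, thick bars span the 25th to 75th and thin bars the 10th to 90th percentiles of cells. The *Gm42418* medians of XN1 (65.6) and CN4 (59.4) are close, but the 90th percentile of XN1 reaches 513.

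The mitochondrial share of reads, a common measure of RNA quality, moved with the members in the 3 lines whose tables hold these reads. In the 25% of cells with the highest share, *Malat1* was at 346 reads per 10000 in XN4, against 66.4 in the 25% with the lowest, counted per 10000 reads other than mitochondrial and ribosomal protein reads. In XN1 these were 93.3 against 37.7, and in CN4 57.7 against 17.8. As log2 ratios, *Malat1* differed by 2.38, 1.31, and 1.70, *Gm42418* by 1.39, 1.93, and 1.61, and *Neat1* by 1.21, 2.09, and 1.40. *Pvt1* differed by 1.29 in XN4 but by only 0.31 in XN1 and 0.64 in CN4. In CN4, *Miat* (1.52) and *Rmst* (1.20) were also higher in the 25% with the highest share. How many of all genes differed as much between these sets was not computed, so that these ratios are values of the members and show nothing particular to them.

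Mitochondrial reads made up 22.6% of all reads in XN4, 15.1% in XN1, and 15.1% in CN4. Counted per 10000 of all reads, the contrast of *Malat1* was 1.62, 1.16, and 1.52, and among cells between the quartiles of total reads it was 1.55, 1.29, and 1.35. Others were less steady. In XN4, per all reads, *Gm42418* was at 0.63, *Neat1* at 0.45, and *Pvt1* at 0.53. *Pvt1* in XN1 was at 0.16 (-0.03 to 0.34) per all reads. It was at 0.01 (-0.25 to 0.27) there between the quartiles of total reads. Between the quartiles of total reads in CN4, *Miat* was at 0.57 (0.10 to 1.05) and *Rmst* at 0.14 (-0.29 to 0.58), and among cells of the normalized table *Miat* was at 0.21 (-0.56 to 0.97) and *Rmst* at 1.74 (0.90 to 2.64). Both ratios thus moved with the choice of cells, and the cause was not tested. *Malat1* was also correlated with the ribosomal protein share, at -0.613 in XN4, -0.347 in XN1, and -0.349 in CN4 over 3384, 3129, and 3158 thinned cells, a description of cells that share a library and a total.

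*Malat1* followed the share of reads in genes over 100 kb in each line. In the 25% of cells with the highest such share, its level was 367 reads per 10000 in XN4, against 53.9 in the 25% with the lowest. It was 84.6 against 29.0 in XN1, 409 against 171 for KN1, and 58.0 against 15.2 for CN4. *Pvt1* stood at 3.99 against 1.52 in KN1 and at 0.537 against 0.285 in CN4. For *Pvt1*, the lowest 25% of KN1 was above the highest 25% of the other lines (at most 0.537). For *Malat1*, it was above that of XN1 and CN4 but not of XN4. The sets were cut within each line, so those of different lines are not matched in their share of long-gene reads. Whether the KN1 levels go beyond that share was not tested. *Gm42418* did not follow *Malat1*, with log2 ratios between these sets of -0.09 for XN4, -0.87 for XN1, -1.39 for KN1, and 0.79 for CN4. Over all thinned cells, its Pearson correlation with the share of long-gene reads was 0.070, 0.039, -0.392, and 0.264 in the same order. Its direction in XN4 and XN1 thus depends on the measure. How many of all genes differed as much between these sets of cells was not computed.

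Cells were classed as cycling where *Mki67*, a proliferation marker, or *Top2a*, a topoisomerase of dividing cells, had a read after thinning. There were 1035 such cells of 3384 for XN4, 1078 of 3129 for XN1, 1651 of 3396 for KN1, and 2059 of 3158 for CN4. *Malat1* was at 125 reads per 10000 in cells with and 209 in cells without these reads in XN4, at 39.0 and 58.8 in XN1, and at 30.9 and 38.5 in CN4. In KN1 both were alike, at 326 and 329, a log2 ratio of -0.01. *Neat1* was lower in the cells with these reads in XN4 (-0.42), XN1 (-0.75), and CN4 (-1.02, interval -1.56 to -0.49), and was at 0.54 (-0.15 to 1.24) in KN1, with 44 and 32 reads. The *Neat1* ratio of CN4, from 58 and 63 reads, was the only one past 2-fold among *Malat1*, *Neat1*, *Pvt1*, and *Gm42418*. The share of all genes past 2-fold between these sets of cells was not computed. *Pvt1* was at -0.38 for XN4, -0.21 for XN1, -0.36 for KN1, and -0.40 for CN4, with intervals that include 0 in XN4 and XN1, though at full depth XN4 was at -0.63 (-0.82 to -0.45). *Gm42418* was at 0.14, -0.17, 0.14, and 0.12. At full depth its ratio in XN4 was -0.03, so that its direction there depends on thinning. In CN4 its ratio at full depth was 0.01 (-0.004 to 0.025), an interval that includes 0. Of the sparse members, *Miat* was at -0.67 (-1.37 to 0.03) in CN4 and, from 7 and 20 reads, at -1.44 (-2.92 to -0.13) in KN1. At full depth these were -0.89 (-1.39 to -0.38) and -0.59 (-1.35 to 0.17). *Rmst* was at 0.36 in CN4 and 0.08 in KN1, with intervals that include 0.

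**Figure D5:**
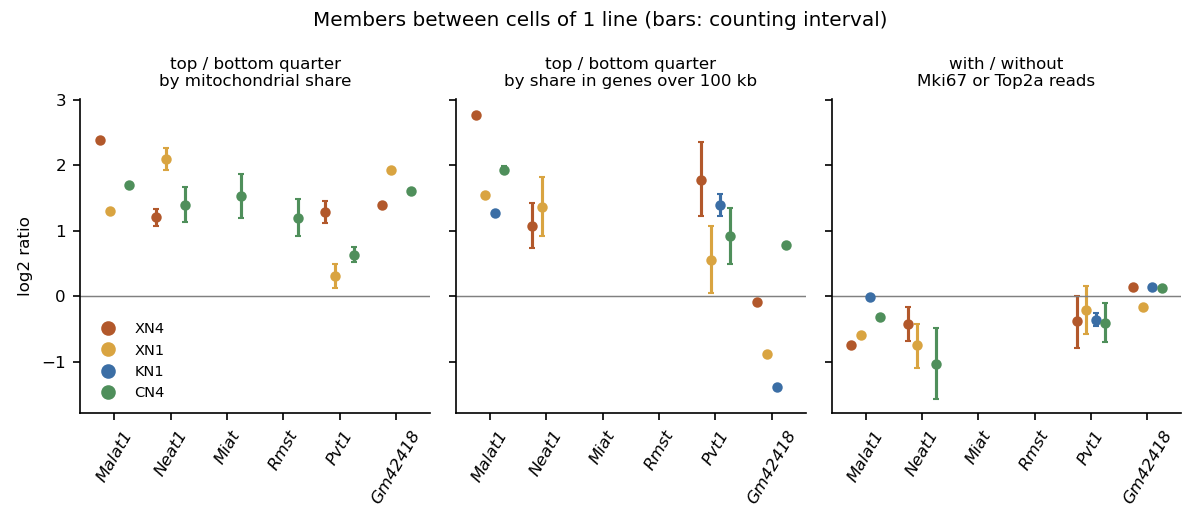
Log2 ratio of each RNA between cells of 1 line, for the 25% of cells with the highest and lowest mitochondrial share, the 25% with the highest and lowest share of reads in genes over 100 kb, and cells with and without *Mki67* or *Top2a* reads; bars are 95% counting intervals, and RNAs with under 50 reads in both sets are left out. *Malat1* reaches 2.38 and 2.77 in XN4 in the first and second panels, and in the panel on *Mki67* and *Top2a* it lies at -0.74 in XN4 and at -0.01 in KN1.

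Pairs of members were only loosely related across cells. *Malat1* and *Gm42418* had a correlation of 0.137 for XN4, 0.0276 for XN1, -0.372 for KN1, and 0.117 for CN4 over the thinned cells of each line, which share a library and a fixed total. In KN1, the 25% of cells with the highest *Malat1* had 138 reads per 10000 of *Gm42418*, against 341 in the 25% with the lowest. In the other lines these were 414 against 401, 162 against 162, and 104 against 74.8. The remaining pairs lay between -0.069 and 0.116, weak values in sparse counts. *Neat1* and *Pvt1* were read together in 33 thinned cells of XN4, where the product of their shares gives 20.1 cells, in 31 cells of XN1, where it gives 23.0, in 7 cells of KN1 (6.82), and in 9 cells of CN4 (9.35).

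Genes were ranked for likeness by their smallest correlation over the lines (by their largest for the least alike). The highest with *Malat1* were *Lsamp*, *Rora*, and *Exoc4*, with 0.131 to 0.252, 0.128 to 0.381, and 0.122 to 0.269 over the lines. The lowest were *Ppia*, the chaperone cyclophilin A (-0.466 to -0.254), *H2afz*, a histone variant (-0.351 to -0.251), and *Actb*, cytoplasmic actin (-0.468 to -0.243). For *Gm42418*, *Cmss1* was highest (0.120 to 0.488), followed by *Lars2*, the mitochondrial leucyl-tRNA synthetase (0.0914 to 0.280), and *Itm2c* (0.0598 to 0.124). No stretch of 25 bases was shared between *Gm42418* and the annotated transcripts of *Cmss1* or *Lars2*. Its lowest correlations, with *Chchd3*, *Rsrc2*, and *Ccdc59*, were between -0.054 and -0.021. For *Pvt1* over 4 lines and *Neat1* over XN4 and XN1, *Malat1* itself ranked first, at 0.0603 to 0.116 and 0.101 to 0.107, values too weak in counts this sparse to be a finding. The others named by the rule, *A230057D06Rik*, *Nav3*, *Tmsb4x*, *Hmgb2*, and *H3f3b* for *Pvt1* and *Cp*, *Mt1*, *Eif4a1*, *Ppia*, and *Hmgb2* for *Neat1*, stayed between -0.091 and 0.129. *Miat* and *Rmst* reached 10% of cells in no line and were not ranked. The names depend on the measure. With Spearman's correlation, 2 of 3 highest and 2 of 3 lowest genes of *Malat1* were the same, without *Exoc4* and *Ppia*, and so they were with *Malat1* and *Gm42418* out of the totals. In the latter setting, which leaves *Malat1* unranked, 1 of 3 highest and 0 of 3 lowest genes of *Pvt1* were the same, while the 3 highest of *Gm42418* were the same in both settings.

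Genes for proteins of the same nuclear bodies were taken from lists chosen with earlier results of these data known, and no protein was measured. Of 10 genes for paraspeckle proteins, which bind *Neat1* RNA, 5 were at least 2-fold lower in KN1 than in CN4. None were higher, and the list median was -0.83. Among all genes, 2586 of 12747 were lower by as much and 3050 higher, with a median of -0.01, and 5 of 10 is near the 44.2% past 2-fold in either direction. The 5 were the genes for RNA-binding proteins *Hnrnpa1* (-1.63), *Tardbp* (-1.38), *Nono* (-1.17), *Hnrnpk* (-1.13), and *Hnrnph3* (-1.05). *Hnrnph3* was also higher in XN4 than in XN1 (1.03) and than in KN1 (1.13). None of 10 was past 2-fold between XN4 and CN4 or between XN1 and KN1, beside 33.1% and 48% of all genes. *Neat1* was at 2.28 and 2.51 there.

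Of 10 genes for nuclear speckle proteins, the splicing-related *Srsf11* (2.09) and *Srrm2* (1.24) were higher in KN1 than in CN4. Another 3, *Srsf1* (-1.73), *Srsf5* (-1.71), and *Srsf7* (-1.33), were lower. These 5 of 10 are near the share of all genes (44.2%), and so are the counts against KN1 that follow (45.8% for XN4 and 48% for XN1). Between XN4 and KN1, 2 were higher and 2 lower in XN4, with *Srsf5* (1.77) and *Srsf11* (-1.62) the farthest. Between XN1 and KN1, 2 were higher and 3 lower in XN1, with *Srsf11* at -2.76. *Srsf11* was also higher in XN4 than in XN1 (1.14), and none of 10 passed 2-fold between XN4 and CN4 or XN1 and CN4, beside 33.1% and 17.6% of all genes.

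Genes beside *Malat1* and *Neat1* on chromosome 19 were compared with them. For KN1 over CN4, where *Malat1* was at 3.29, *Frmd8* was at -0.84, *Dpf2* at -1.12, *Ltbp3* at -2.50, and *Tigd3* at 0.51. For XN4 over CN4, *Slc25a45* (2.50) was higher and *Frmd8* (-1.81) lower, beside 2.11 for *Malat1* and 2.28 for *Neat1*. *Slc25a45* was also near *Malat1* in XN4 over XN1 (1.79 beside 1.42) and in XN1 over CN4 (0.71 beside 0.69), and it was not listed in KN1. *Myc*, the neighbor of *Pvt1*, was at 0.153 reads per 10000 for XN4, 0.799 for XN1, 0.201 for KN1, and 0.865 for CN4. It was thus low in KN1, with -2.11 against CN4, where *Pvt1* was highest. *Sox2*, the protein partner of *Rmst*, was at 0.0125, 3.05, 1.17, and 5.84 reads per 10000 in XN4, XN1, KN1, and CN4, and *Qk*, a splicing regulator that binds *Miat*, at 2.95, 14.2, 8.52, and 18.8. XN4 was the lowest line for both. *Celf1* and *Nedd1* stayed within 2-fold in each comparison. Of the 14 genes listed as neighbors and partners, 10 were compared in each pair, with 1 higher and 4 lower (XN4 over XN1), 2 and 3 (XN4 over KN1), 1 and 4 (XN4 over CN4), 3 and 1 (XN1 over KN1), 0 and 0 (XN1 over CN4), and 0 and 5 (KN1 over CN4). The shares of all genes past 2-fold in these pairs were 31.1%, 45.8%, 33.1%, 48%, 17.6%, and 44.2% in the same order.

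Of 5 transcripts with ribosomal RNA-like sequence or a like count pattern, 3 were listed. *Gm26917*, which ends 617 bases before *Gm42418*, was at 0.213 reads per 10000 for XN4, 0.0996 for XN1, 1.93 for KN1, and 0.104 for CN4. *AY036118*, on the opposite strand of *Gm42418*, was at 0.452, 0.166, 0.148, and 0.0946, and *Lars2* at 4.49, 1.03, 3.41, and 0.978. *Lars2*, which is in this list for a count pattern like that of *Gm42418*, had the same order of lines, though XN1 and CN4 did not differ beyond counting error. *Gm26917* was highest in KN1, and *AY036118* was not higher in KN1 than in XN1. All 3 were past 2-fold between XN4 and XN1 and between XN4 and CN4, always higher in XN4. None was past 2-fold between XN1 and CN4. The shares of all genes were 31.1%, 33.1%, and 17.6% in these pairs. Against KN1, XN4 had 1 higher and 1 lower, XN1 had 0 higher and 2 lower, and CN4 had 0 higher and 2 lower, beside 45.8%, 48%, and 44.2% of all genes.

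Among 28 other long noncoding RNAs, 10 to 13 were listed in a line, and 7 to 11 could be compared in a pair. The imprinted *Meg3* was higher in XN4 than in CN4 (6.06) and XN1 (4.20), the imprinted *H19* than in CN4 (5.79), and *Mirg*, of the *Meg3* locus, than in XN1 (4.66). *Kcnq1ot1* (2.06), *Mir9-3hg* (1.30), *Lncpint* (1.30), and *Ftx* (1.08) were higher in KN1 than in CN4, and *Tug1* was lower (-1.33). In all, 4 were higher and 0 lower in XN4 over XN1, 1 and 2 in XN4 over KN1, 3 and 0 in XN4 over CN4, 1 and 3 in XN1 over KN1, 1 and 2 in XN1 over CN4, and 4 and 1 in KN1 over CN4. Of 10, 8, 11, 7, 9, and 9 compared, these are to be read beside the 31.1%, 45.8%, 33.1%, 48%, 17.6%, and 44.2% of all genes. The medians for XN4 over XN1 and XN4 over CN4 were 0.76 and 0.07, beside 0.12 and 0.05 for all genes.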

How the data were processed

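One BD Rhapsody whole-transcriptome library was analysed for each of 4 mouse NSC lines, grouped by the line named in the labels. The authors deposited 3 tables of raw read counts per gene and cell (XN4, XN1, and CN4), and 4 normalized tables of natural log values. Per the file headers and values, the latter are ln(1 + reads per 10000) of a subset of cells, without ribosomal protein and mitochondrial genes. The submitters' processing notes name Seurat 4.3.0 and mm10. The aligner settings and the strand setting are not given in the sources used here, and a KN1 table of all reads was not used here.

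Reads were recovered from the normalized values (within 0.01 of a whole read). A level is the sum over cells per 10000 reads. For comparisons between cells, each cell was thinned to 3200 reads (2000 without *Malat1* and *Gm42418*), which left out 290 to 776 cells per line. Intervals are 95%, exact Poisson for reads and Clopper-Pearson for shares. With 1 library per line, no test was run. A ratio needed 50 reads in 1 of the 2 lines, and 2-fold was the threshold. Doublets were neither called nor removed, and an alternative dropped the deepest 5% of cells. Sets of 25% of cells were cut at quartiles of the measure. Positions and sequences are from GENCODE M21 (GRCm38), so gene models may differ from those the authors counted.

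The members and lists (paraspeckle and nuclear speckle proteins, neighbors and partners, ribosomal RNA-like and other long noncoding RNAs, and cell type markers) were chosen with earlier results of these data known. Besides members, the text names list genes past 2-fold, by size, and those it compares with a member, which were chosen after their values were seen where they were not past 2-fold. Some list genes are not reported here. For each member it also names the 3 genes with the highest and the 3 with the lowest correlation across thinned cells, in lines with a read of both genes in at least 10% of cells. Alternatives changed the total, the depth, the cells, the threshold, and the correlation. Leaving genes over 100 kb out of the totals was added after seeing the data. Scripts ran under Python 3.11.15, numpy 2.4.6, pandas 2.3.3, scipy 1.17.1, and matplotlib 3.10.9 and were tested on simulated data.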

Additional observations from a re-analysis of the deposited data

Results flagged for a closer look

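Directions that differed between lines are given here, and none of the differences was tested. The log2 ratio of *Gm42418* between cells with and without *Mki67* or *Top2a* reads was 0.14 for XN4, -0.17 for XN1, 0.14 for KN1, and 0.12 for CN4. At full depth it was -0.03 in XN4 and 0.01 (-0.004 to 0.025) in CN4. Cells were also split into the 25% with the highest and the 25% with the lowest share of reads in genes over 100 kb. The log2 ratio of *Gm42418* between these was -0.09 for XN4, -0.87 for XN1, -1.39 for KN1, and 0.79 for CN4. Its Pearson correlation with that share was above 0 in XN4 (0.070) and XN1 (0.039), so the direction there depends on the measure. Between the 25% of cells with the most and the fewest total reads, *Gm42418* was at -0.81 for XN4, -1.11 for XN1, 0.67 for KN1, and -0.93 for CN4. *Pvt1* was at -1.10, -0.63, 0.13, and -0.40 between them, so that KN1 took the other direction for both RNAs. The correlation of *Malat1* and *Gm42418* across cells was 0.137 in XN4, -0.372 in KN1, and 0.117 in CN4.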

How the results depend on the processing

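No paired analysis was possible because each line is 1 library. Among ratios past 2-fold and correlations of at least 0.1 in size, none took the opposite sign under an alternative. Smaller values could change sign, as 1 ratio between lines did after thinning and 1 as a mean over cells. The log2 ratio of *Gm42418* between XN4 cells with and without *Mki67* or *Top2a* reads went from 0.14 to -0.03 at full depth. At a 4-fold threshold, the members past it were 0 between XN4 and XN1 (2 at 2-fold), 0 between XN1 and CN4 (1 at 2-fold), and 2 between KN1 and CN4 (4 at 2-fold). At 1.5-fold, 3 passed between XN1 and CN4. The share of all genes was not computed at these thresholds. With all reads of all cells, 5 of 6 passed 2-fold between XN4 and CN4, beside 39.1% of all genes. Between XN1 and CN4, 3 of 6 did, beside 21.6%. *Miat* and *Rmst* are listed there and were let in by their reads in CN4. The other 45 of 51 counts under alternatives were within 1.5 times the count at 2-fold. Of 26 ratios between lines, 16 were past 2-fold. Of these, 15 stayed past it as a mean over cells and 15 after thinning, with *Malat1* between XN4 and KN1 lost in each. All 16 stayed past it without the deepest 5% of cells and without long genes in the totals. As a mean over cells, *Rmst* in KN1 over CN4 moved from 0.02 to 0.76, and *Pvt1* in XN4 over XN1 from -0.20 to 0.02. Under alternatives, 70 of 130 values of the ratios between lines, 32 of 42 values for the mitochondrial share and 31 of 54 shares of cells moved beyond their counting interval, and none of those for the mitochondrial share changed direction. Low counts limit *Miat* and *Rmst* most. They had 3 to 17 reads in XN4 and XN1 (all reads) and 63 to 188 in the normalized tables of KN1 and CN4.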

Other observations

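Levels were also compared between cells with many and few reads, but the share of all genes that differed was not computed. Between the 25% of cells with the most and the fewest total reads, *Malat1* was at 83.8 against 353 reads per 10000 in XN4, 46.5 against 75.5 in XN1, and 24.7 against 63.6 in CN4. In KN1 these were 305 and 303, whereas *Rmst* there was at 0.0458 against 0.281, from 58 and 83 reads. *Neat1* was at 0.438 against 0.965 in XN4 and at 0.316 against 0.605 in XN1. In CN4, *Miat* was at 0.0338 against 0.159 and *Rmst* at 0.0385 against 0.162, with 29 to 49 reads in each set.

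The cells kept in the normalized tables were compared with the other cells of their libraries. The log2 ratio of *Malat1*, kept over other cells, was 0.16 in XN4, 0.00 in XN1, and 0.22 in CN4. That of *Neat1* in CN4 was 0.55 (0.34 to 0.75), an interval that leaves out 0. The kept cells of CN4 had a median of 8406 reads of all kinds, against 9400 in its other cells.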
